A study of Homo sapiens with 3 samples.

Results

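Single-cell RNA counts of human blood vessel organoids held 1822 cells that carried transcripts of both MEOX2 and CLDN11, among 23805 cells that passed the filters and 26959 barcodes in the files. A cell entered this set with 1 or more unique molecular identifiers (UMIs, each standing for one counted RNA molecule) of MEOX2 and 1 or more of CLDN11. It also needed 1000 UMIs in all, 500 detected genes and no more than 20% of UMIs from mitochondrial genes. Cells with a UMI in 3 or more of the 6 cycling genes MKI67, TOP2A, CDK1, UBE2C, BIRC5 and CENPF were kept out. These cells are called double-positive cells here. They were selected on the measured UMIs of MEOX2, CLDN11 and the cycling genes, so these genes, and every contrast of double-positive cells with other cells, are given as a description.

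All organoids came from the human embryonic stem cell line H1, in which a PiggyBac transposon had placed a doxycycline-inducible cassette for NEUROD1, a transcription factor that drives neuronal differentiation, joined to GFP. There were 3 groups of 1 library each: cassette-bearing organoids given no doxycycline, organoids given doxycycline at 1 µg/ml for 15 days, and organoids given it for 45 days. All were harvested at day 45, all had BDNF and NT-3 in the medium from day 15, and each library pooled 5 to 6 organoids, so no spread between organoids can be had. Which 15 of the 45 days were induced is not given in the labels. With 1 library per group there is no test between groups, no p-value is given, and each interval below is a 95% interval of counting error only. Within double-positive cells NEUROD1 had 0 UMIs without induction, 1 UMI at 15 days and 50 UMIs in 18 of the 1134 cells at 45 days.

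Blood vessel organoids are self-organising cultures in which endothelial networks grow inside a bed of mural and fibroblast-like mesenchyme. MEOX2 is a homeobox transcription factor of the somites, limb muscle precursors and the vessel wall, where it is known as a brake on proliferation. CLDN11 is a claudin, a tight-junction membrane protein best known from the myelin of oligodendrocytes and from the barrier that Sertoli cells build in the testis, and it is also made by the fibroblast-like barrier cells of the meninges. ASPN (asporin) is a small leucine-rich proteoglycan that binds collagen, PTGFR is the receptor of prostaglandin F2-alpha, ELN is elastin, the rubber-like protein of elastic fibres, and LGR5 is a receptor of R-spondins that strengthens WNT signalling.

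MEOX2 (ENSG00000106511) lies on the minus strand of chromosome 7 at 15611212 to 15686812, and CLDN11 (ENSG00000013297) on the plus strand of chromosome 3 at 170418865 to 170454733 (GRCh38). The promoter windows of the 2 genes that define the cells are shown because both genes were found more often after induction. Each window runs from 250 bases before to 50 bases after a RefSeq gene start (GRCh38.p14), at chr7:15686634-15686933 for MEOX2 and at chr3:170418618-170418917 for CLDN11, 5′ to 3′ on the gene's strand. Capitals mark matches, on either strand, to the GC box GGGCGG, to the TATA motif TATAAA, to the homeobox core TAATTA and to CACGTG, a single form of the E-box.
MEOX2: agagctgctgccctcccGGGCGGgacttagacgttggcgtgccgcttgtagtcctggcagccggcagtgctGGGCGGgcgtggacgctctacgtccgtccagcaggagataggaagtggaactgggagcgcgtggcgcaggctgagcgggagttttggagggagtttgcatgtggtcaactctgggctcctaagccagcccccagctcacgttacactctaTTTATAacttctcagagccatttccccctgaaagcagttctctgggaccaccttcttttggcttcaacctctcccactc
CLDN11: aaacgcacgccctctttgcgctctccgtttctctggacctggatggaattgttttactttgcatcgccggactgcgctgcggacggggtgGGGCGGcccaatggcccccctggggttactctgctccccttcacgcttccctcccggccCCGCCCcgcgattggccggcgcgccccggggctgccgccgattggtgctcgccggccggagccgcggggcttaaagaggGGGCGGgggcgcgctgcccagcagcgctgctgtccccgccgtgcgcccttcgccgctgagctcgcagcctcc
The MEOX2 window held GGGCGG in 2 places and TATAAA once, on the other strand, and the CLDN11 window held GGGCGG in 3 places. A second RefSeq start of CLDN11, at chr3:170420976-170421275, had GGGCGG once. Neither TAATTA nor CACGTG was found in these windows, and other forms of the E-box were not searched for. Among 35116 RefSeq promoters of the same length, 45.0% held GGGCGG, 11.5% TATAAA, 7.26% CACGTG and 4.84% TAATTA, so the matches are a description of the letters and not of bound sites.

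Double-positive cells were a small part of the uninduced organoids and a much larger part of both induced ones. They made up 1.12% of filtered cells without induction (99 of 8858, 0.909 to 1.36), 11.1% at 15 days (589 of 5303, 10.3 to 11.98) and 11.8% at 45 days (1134 of 9644, 11.1 to 12.4). The share at 45 days was 10.5 times the uninduced share (8.56 to 13.1), and that at 15 days was 9.94 times it (8.02 to 12.4). Between 45 and 15 days the ratio was 1.06 (0.958 to 1.17). Each gene alone was also rarest in the uninduced library: MEOX2 was found in 9.38% of filtered cells with no induction, 32.0% with 15 days and 34.4% with 45 days of it, and CLDN11 in 5.35%, 21.6% and 21.1%.

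The libraries differed in depth, with medians per filtered cell of 5305.5 UMIs for no induction, 7368 for 15 days and 5697 for 45 days, and a deeper cell is more likely to show a UMI of each gene. After every cell was thinned to 2000 UMIs, which left out 344, 284 and 504 shallower cells, 0.294% (25 of 8514), 3.53% (177 of 5019) and 4.62% (422 of 9140) still had both genes. The thinned share was 15.7 times the uninduced one at 45 days and 12.01 times at 15 days. After thinning, the share at 45 days was 1.31 times that at 15 days (1.10 to 1.57), a difference that the unthinned shares do not show. With non-cycling mesenchymal cells, those with a UMI in at least 3 of the 7 genes COL1A1, COL1A2, COL3A1, PDGFRA, LUM, DCN and POSTN or in both rule genes, as the whole, the shares were 1.41%, 17.1% and 16.1%.

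**Figure D1:**
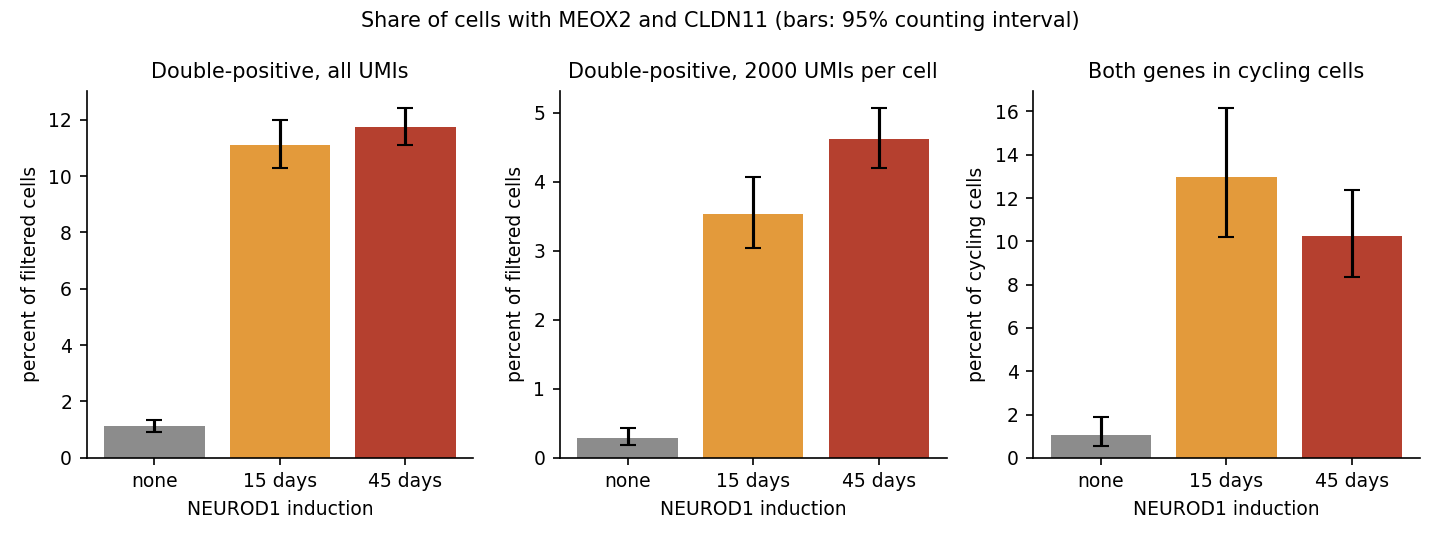
Share of cells with UMIs of both MEOX2 and CLDN11 (y axis, percent) in the uninduced, 15 day and 45 day libraries (x axis): as counted, after thinning to 2000 UMIs, and among cycling cells, with exact 95% counting intervals as bars. All 3 measures are lowest without induction, and the as-counted shares of the induced libraries lie at 11.1% and 11.8%, with intervals that overlap.

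CLDN11 went with MEOX2 in the same cells. Among non-cycling cells, 13.7% of MEOX2-positive cells had a CLDN11 UMI without induction, against 4.62% of MEOX2-negative cells. At 15 days the shares were 39.01% in MEOX2-positive and 13.7% in MEOX2-negative cells, and at 45 days 38.1% and 13.2%. Thinned to 2000 UMIs, the pairs were 6.85% and 2.38% without induction, 23.3% and 8.04% at 15 days, and 25.9% and 8.53% at 45 days. The ratio between the 2 kinds of cell was therefore near 3 in every library, while the level of both shares was higher after induction.

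Free RNA can place a UMI in a droplet of another cell type, so the pair was also counted in cells of other types. Whether those cells make either gene themselves was not tested. Among endothelial cells, taken as cells with PECAM1 and CDH5, both genes were found in 0 of 466 without induction, which allows a share of up to 0.644%, in 6 of 340 at 15 days (1.76%) and in 2 of 218 at 45 days (0.917%). Among epithelial cells with EPCAM and CDH1 the counts were 0 of 300, 1 of 230 (0.435%) and 6 of 210 (2.86%). Macrophages with TYROBP and C1QA gave 0 of 80, 4 of 109 (3.67%) and 1 of 99 (1.01%). After thinning, both genes were found in 0 of 450, 0 of 333 and 0 of 202 endothelial cells, in 0 of 297, 0 of 224 and 2 of 206 epithelial cells (0.971% at 45 days), and in 0 of 76, 0 of 99 and 0 of 89 macrophages. Without thinning, each gene was counted whether or not the other was present, so these shares cannot be lower than those of the pair. MEOX2 was in 6.65%, 7.06% and 9.63% of endothelial cells, 2.33%, 8.70% and 10.5% of epithelial cells and 2.5%, 8.26% and 7.07% of macrophages. CLDN11 was in 1.07%, 4.41% and 5.05% of endothelial cells, 2.33%, 8.26% and 7.14% of epithelial cells and 1.25%, 4.59% and 8.08% of macrophages. The part of free RNA in the shares over all cells was not tested.

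Many double-positive cells rest on few molecules. Exactly 1 MEOX2 UMI was present in 54.5% of them without induction, 35.7% at 15 days and 32.6% at 45 days, and exactly 1 CLDN11 UMI in 54.5%, 38.9% and 37.5%. At least 2 UMIs of both genes were held by 23, 250 and 504 cells. Around the threshold, the cells just inside it, with exactly 1 UMI of each gene (32, 100 and 165 cells), had LGR5 at 62.5, 39.01 and 49.5 CPM without induction, at 15 days and at 45 days. CPM are counts per 1e6, here the UMIs of a gene summed over a group of cells and set against all UMIs of those cells. Just outside it, non-cycling cells with MEOX2 but no CLDN11 had LGR5 at 39.3, 39.6 and 45.5 CPM, and cells with CLDN11 but no MEOX2 at 17.6, 38.4 and 40.9 CPM. ASPN was at 62.5, 20.8 and 137 CPM just inside the threshold, at 89.6, 38.7 and 84.4 CPM in cells with MEOX2 alone, and at 65.0, 22.1 and 89.7 CPM in cells with CLDN11 alone. Non-cycling cells of any type with neither gene had lower levels of ASPN, at 48.5, 8.2 and 21.1 CPM, and of LGR5, at 9.2, 17.7 and 21.7 CPM. These include cells that are not mesenchymal. Mesenchymal cells with few markers of other types are given below as the limited set. Their ASPN was above that of cells just inside the threshold without induction and at 15 days, and below it at 45 days.

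The label calls these cells mesenchyme, and most of them held mesenchymal transcripts, as did most non-cycling cells of each library. At least 3 of the 7 mesenchymal genes were found in 93.9% of double-positive cells with no induction, 88.1% with 15 days and 91.4% with 45 days of it. Among all non-cycling cells, double-positive ones included, they were found in 7008 of 7823, 3381 of 4779 and 6933 of 8717. Without induction the 2 shares were close. At least 2 of a longer list of 12 mesenchymal markers were found in 98.0%, 99.8% and 100% of double-positive cells, with no share over all cells taken. Of the 2 cell types best known for CLDN11, oligodendrocytes left little trace. Summed oligodendrocyte and Schwann cell markers stood at 5.02, 12.8 and 13.1 CPM, with SOX10, OLIG1, OLIG2, MOG and FOXD3 at 0 in all 3 libraries. The Sertoli markers summed to 55.2, 81.9 and 93.4 CPM, with DHH and FSHR at 0 in all 3 libraries. Most of that sum was SOX9 (30.1, 57.5 and 69.8 CPM), which cartilage and tendon precursors also make. AMH was the other Sertoli marker that reached 20 CPM in every library. At least 2 Sertoli markers were found in 2.02%, 6.62% and 4.76% of double-positive cells.

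Some markers of other cell types were present. Summed endothelial markers were at 338, 428 and 317 CPM in double-positive cells with none, 15 and 45 days of induction, with 2 or more of them in 40.4%, 42.4% and 27.9% of the cells. Only EGFL7 and EMCN reached 20 CPM, while PECAM1 stood at 3.35, 12.4 and 5.15 CPM. EMCN was found in 71.7%, 71.5% and 53.9% of double-positive cells and in 68.2%, 72.4% and 64.7% of endothelial cells. Among other non-cycling mesenchymal cells, with no limit on other markers, it was found in 40.3%, 71.6% and 46.3%. Summed neuronal markers were at 454, 1028 and 811 CPM, with 2 or more of them in 22.2%, 64.3% and 46.6% of the cells. Epithelial markers summed to 223, 173 and 194 CPM, with 2 or more of them in 19.2%, 19.9% and 10.8% of the cells. Haematopoietic markers summed to 48.6, 85.2 and 33.3 CPM, with 2 or more in 0 of 99, 3.06% and 1.59%, and with PTPRC at 0 without induction and at 45 days. Mural markers summed to 432, 492 and 478 CPM, with 2 or more of them in 37.4%, 50.4% and 43.4% of the cells. No cell was removed as a doublet here. A neighbour-based search for simulated doublets would have taken out 13 of 99, 51 of 589 and 161 of 1134 double-positive cells. Over all filtered cells it would have taken out 725 of 8858, 253 of 5303 and 831 of 9644. Double-positive cells were thus flagged more often than filtered cells at large in every library.

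Each of the 4 markers outside the rule was higher in double-positive cells than in other mesenchyme in at least 2 libraries. These markers were chosen with earlier results of these data known, so this is a description. Other non-cycling mesenchymal cells were taken in 2 ways: a limited set of cells with fewer than 2 markers of each of the endothelial, epithelial, haematopoietic and neuronal lists (3134, 417 and 2553 cells), and an open set without that limit (6915, 2862 and 5896 cells). The limited set is stricter than the double-positive cells themselves, of which 56, 472 and 694 would fail its limit, so both sets are given. PTGFR was at 55.2, 29.9 and 81.5 CPM in double-positive cells with none, 15 and 45 days of induction, against 5.90, 10.1 and 18.0 CPM in the limited set and 6.22, 9.83 and 16.1 CPM in the open set. LGR5 was at 97.1, 73.5 and 101 CPM, against 18.4, 40.8 and 31.5 CPM in the limited set and 13.1, 34.7 and 33.7 CPM in the open set. These 2 receptors were thus higher in double-positive cells in all 3 libraries, and 15 days was the library with the smallest contrast.

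ASPN was at 164, 63.6 and 217 CPM in double-positive cells, against 84.5, 58.2 and 61.6 CPM in the limited set and 57.9, 24.8 and 52.8 CPM in the open set. ELN was at 60.3, 47.7 and 90.6 CPM, against 17.5, 54.5 and 41.8 CPM in the limited set and 14.0, 27.2 and 39.1 CPM in the open set. At 15 days ELN was therefore lower in double-positive cells than in the limited set and ASPN nearly level with it. Thinned to 2000 UMIs, ASPN was found in 17.5%, 9.93% and 26.3% of double-positive cells, against 8.70%, 3.72% and 7.35% of the open set and 1.33%, 0% and 0.495% of endothelial cells. For LGR5 the thinned shares were 16.5%, 14.6% and 15.8% of double-positive cells, against 2.82%, 6.98% and 6.13% of the open set.

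**Figure D2:**
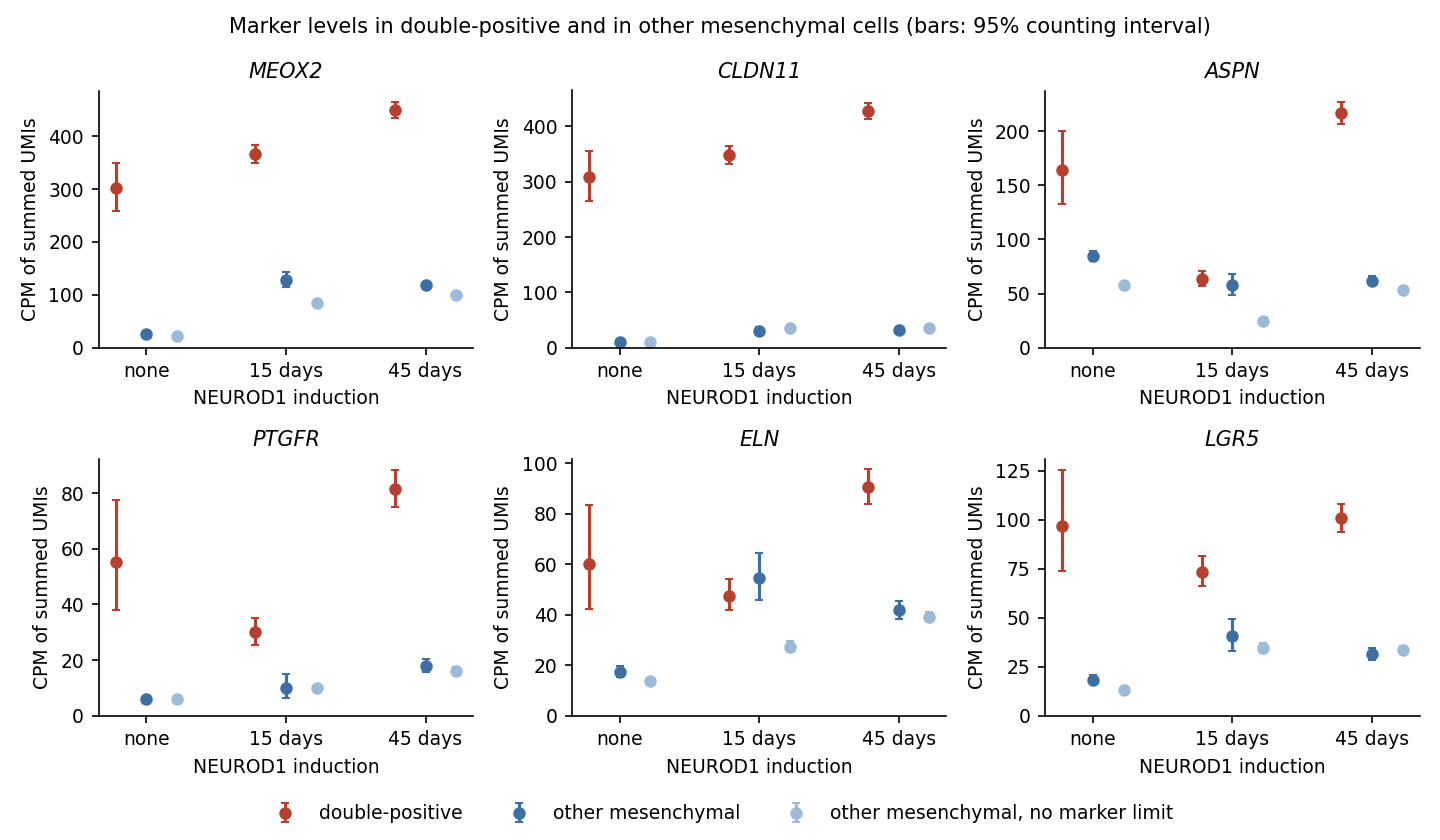
Levels of MEOX2, CLDN11, ASPN, PTGFR, ELN and LGR5 (y axis, CPM, linear from 0) in double-positive cells, in the limited set and in the open set of other mesenchymal cells of each library (x axis), with exact 95% counting intervals as bars. MEOX2 and CLDN11 are high in double-positive cells by construction, while PTGFR and LGR5 lie above both other sets in every library. At 15 days ELN lies below the limited set, at 47.7 against 54.5 CPM.

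Across the genes compared, few differed by at least 2-fold in the same direction in all 3 libraries. A gene entered with 20 CPM or more, and each log2 ratio was taken after 5 CPM had been added above and below, which understates the change of low genes. Against the limited set, 13 genes of 5521 were higher in double-positive cells (0.235%) and 16 lower (0.29%). Against the open set, 15 of 5579 were higher (0.269%) and 16 lower (0.287%). The 55 genes used to choose double-positive or comparison cells were not compared and are left out of these counts. They are MEOX2, CLDN11, the cycling genes and the mesenchymal genes that chose the comparison cells. The endothelial, epithelial, haematopoietic and neuronal lists make up the rest, so these counts say nothing about such genes. In all, 7 genes were higher against both sets, namely EBF3, HTR2B, OLFM3, PRLR, PTGFR, SMC2 and ZNF385D, and 5 were lower against both, namely FXYD5, LIX1, MSX2, SFRP2 and TPBG.

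Several genes that were higher encode receptors at the cell surface. PRLR, the prolactin receptor, was at 36.8, 54.6 and 67.7 CPM in double-positive cells with none, 15 and 45 days of induction, against 10.9, 23.9 and 21.2 CPM in the open set. HTR2B, a serotonin receptor known from heart valve and smooth muscle, was at 41.9, 33.2 and 35.3 CPM, against 3.77, 13.0 and 8.18 CPM. PTGER2, a receptor of prostaglandin E2, was at 61.9, 64.0 and 62.1 CPM, against 11.01, 21.6 and 24.6 CPM in the open set, and it did not pass 2-fold in every library against the limited set. The levels of HTR2B and PTGER2 in double-positive cells varied little with induction, while those of the open set were lowest without induction.

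Other higher genes act in the nucleus or outside the cell. EBF3, a transcription factor of mesoderm and neurons, was at 46.9, 65.8 and 72.8 CPM in double-positive cells, against 7.92, 22.3 and 24.3 CPM in the open set. ZNF385D, a zinc finger gene, was at 93.8, 97.6 and 136 CPM, against 20.1, 26.7 and 40.0 CPM. SMC2, a condensin subunit that packs chromosomes, was at 90.4, 119 and 171 CPM, against 31.8, 47.3 and 57.3 CPM, although the cells were chosen for few cycling genes. OLFM3, a secreted olfactomedin, was at 33.5, 41.4 and 35.9 CPM, against 4.15, 12.9 and 7.32 CPM. PRLR and SMC2 stayed past 2-fold in all 3 libraries under each of 11 other settings tried, which the other genes named in this paragraph did not.

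The lower genes included regulators of limb and skull mesenchyme. SFRP2, a secreted WNT modulator of dermal and limb mesenchyme, was at 41.9, 3.87 and 18.0 CPM in double-positive cells with none, 15 and 45 days of induction, against 116, 27.2 and 58.6 CPM in the open set, and it stayed past 2-fold under each of the 11 other settings. MSX2, a homeobox factor of limb and skull, was at 11.7, 24.9 and 14.3 CPM, against 33.7, 56.1 and 48.9 CPM. LIX1, a limb-expressed gene, was at 5.02, 6.11 and 6.47 CPM, against 42.3, 25.2 and 22.8 CPM. TPBG, a membrane glycoprotein that restrains WNT signalling, was at 18.4, 17.9 and 18.6 CPM, against 54.6, 44.8 and 49.1 CPM. The uninduced level of LIX1 in double-positive cells rests on 3 UMIs.

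**Figure D3:**
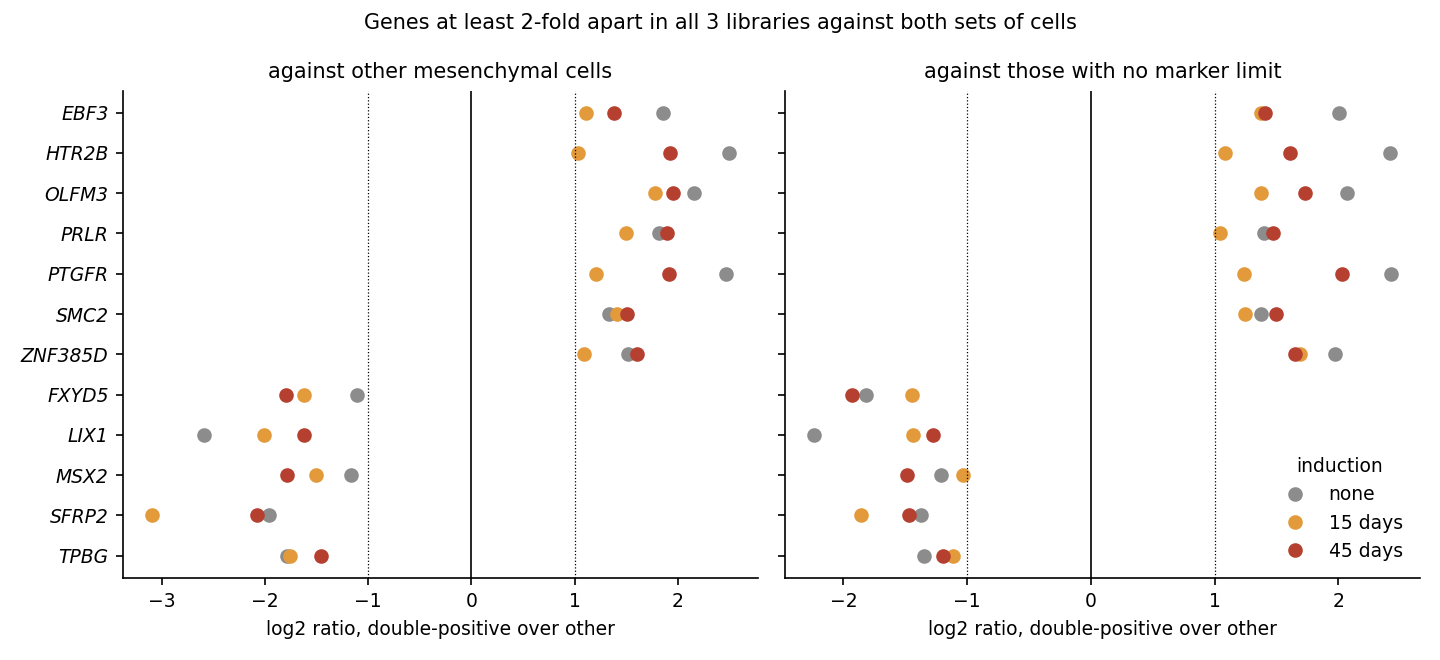
Log2 ratio of double-positive cells to other mesenchymal cells (x axis) in each library for the genes past 2-fold in all 3 libraries against both comparison sets (y axis), on the left against the limited set and on the right against the open set, with dotted lines at 2-fold. Each point is 1 library. The lowest ratio is that of SFRP2 at 15 days against the limited set, -3.09, and the 3 ratios of SMC2 lie between 1.33 and 1.50 there.

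Limb factors as a list were lower in double-positive cells than in the limited set. Among 14 limb mesenchyme transcription factors measured against the limited set, 4 were lower and 0 higher, with medians of -1.08, -0.79 and -1.07 in log2 without induction, at 15 days and at 45 days, where the medians over all genes were 0.01, 0.01 and 0.02. Against the open set 1 was lower, with medians of -0.63, -0.17 and -0.47. TWIST1, a factor of cranial and limb mesenchyme, was at 194, 82.5 and 138 CPM in double-positive cells, against 502, 153 and 355 CPM in the open set, and PRRX1, a limb bud factor, at 126, 94.5 and 139 CPM, against 211, 180 and 333 CPM. HAND2, a factor of heart, limb and branchial arch mesenchyme, ran the other way, at 174, 216 and 192 CPM, against 66.5, 135 and 124 CPM.

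Among the 7 genes of FGF and ERK signalling measured, 0 passed 2-fold in all 3 libraries, and their medians were 1.28, 0.30 and 0.67 against the limited set. SPRY1, which limits FGF signalling, was at 358, 298 and 336 CPM in double-positive cells, against 98.5, 236 and 167 CPM in the open set. Of 10 retinoid genes measured against the open set, 2 were higher: ALDH1A1, an enzyme that makes retinoic acid, at 204, 139 and 165 CPM, against 36.2, 60.7 and 51.7 CPM, and CRABP1, which binds retinoic acid inside the cell, at 392, 447 and 494 CPM, against 175, 163 and 204 CPM. Against the limited set, 0 of 11 retinoid genes passed in all 3 libraries. The matrix genes that were compared did not stand apart against the limited set. Among them 0 of 16 elastic fibre genes, 0 of 8 fibrillar collagens and 0 of 13 basement membrane genes passed in either direction. The 7 mesenchymal genes that chose the comparison cells could not enter. The 12 mesenchymal markers, which include these 7, summed to 5580, 3443 and 4066 CPM in double-positive cells. They summed to 9692, 6019 and 5531 CPM in the limited set and to 12063, 4966 and 5227 CPM in the open set. MEOX1, the paralogue of MEOX2, was at 13.4, 18.5 and 18.4 CPM, against 2.05, 5.09 and 6.20 CPM in the open set, below the 20 CPM needed to enter. BMP5, a growth factor of skeletal and valve mesenchyme, was at 121, 58.5 and 92.7 CPM, against 22.0, 33.2 and 40.6 CPM.

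Other mesenchymal gates overlapped with double-positive cells in part. IGF1 together with ALDH1A2 was found in 8.08%, 9.51% and 9.96% of double-positive cells with none, 15 and 45 days of induction, against 5.35%, 6.43% and 4.29% of the open set. HAND1 or FOXF1, factors of lateral plate and gut mesenchyme, occurred in 3.03%, 4.75% and 2.20%, against 10.1%, 12.5% and 4.77%. The pair LHX9 and HOXD13, known from the distal limb, occurred in 0 of 99, 1.02% and 1.41%, against 0.46%, 2.20% and 6.29%. The pericyte channel genes KCNJ8 and ABCC9 were both found in 2.02%, 3.57% and 3.00%, against 2.23%, 7.93% and 4.32%.

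Double-positive cells were mixed in their markers. Of the 4 markers outside the rule, 0 were found in 35.4%, 37.5% and 22.7% of the cells with none, 15 and 45 days of induction, and all 4 in 0%, 1.2% and 4.7%. ASPN was present in 29 of 99, 134 of 589 and 522 of 1134 cells. Thinned to 2000 UMIs, PTGFR was found in 35.3% of ASPN-positive and 5.0% of ASPN-negative cells without induction (6 of 17 and 4 of 80 cells), in 8.6% and 5.9% at 15 days, and in 20.1% and 9.2% at 45 days. ELN was found in 17.6% and 13.8%, in 15.5% and 7.0%, and in 21.4% and 14.4%. LGR5 was found in 23.5% and 15.0%, in 20.7% and 13.9%, and in 18.0% and 15.0%. These differences were not tested.

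Splitting the cells by ASPN left few genes past 2-fold in every library. Of 5427 genes, 1 was higher in ASPN-positive cells in all 3 libraries, ASPN itself, and 1 was lower: DKK1, a secreted inhibitor of WNT signalling, at 11.5, 101 and 19.9 CPM in ASPN-positive and 51.9, 220 and 65.1 CPM in ASPN-negative cells. Its uninduced ratio of 0.222 (0.0253 to 0.903) rests on 2 UMIs in ASPN-positive cells. OGN (osteoglycin), another small leucine-rich proteoglycan, was at 34.6, 6.9 and 41.1 CPM in ASPN-positive and 7.1, 0.5 and 7.6 CPM in ASPN-negative cells, from 6 and 3 UMIs without induction and 8 and 2 UMIs at 15 days, and was not among the genes compared. SRPX, an extracellular sushi-repeat protein, was at 173, 51.8 and 118 CPM, against 66.1, 29.3 and 58.7 CPM, and NFIB, a nuclear factor, at 340, 297 and 419 CPM, against 205, 161 and 246 CPM. MMP9, a matrix-degrading protease, was at 11.5, 6.0 and 25.4 CPM in ASPN-positive cells, against 23.6, 38.7 and 121 CPM. Its uninduced ratio of 0.489 (0.0521 to 2.29) rests on 2 and 10 UMIs, and its interval holds 1.

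Within double-positive cells, UMIs were summed per library, over 597298 without induction, 4908358 at 15 days and 7573432 at 45 days. Of 6303 genes compared at 45 days against none, 158 had at least 2-fold higher levels (2.51%) and 32 lower ones (0.508%), and the median log2 ratio over all genes was 0.14. At 15 days against none, 173 of 6320 were higher (2.74%) and 46 lower (0.728%), with a median of 0.16. At 45 against 15 days, 17 of 6243 were higher (0.272%) and 22 lower (0.352%), with a median of -0.02. In the open set of other mesenchymal cells the shares of genes were 1.01% higher and 1.59% lower at 45 days against none, 2.31% and 1.4% at 15 days against none, and 0.144% and 0.545% at 45 against 15 days. Unlike in double-positive cells, more genes were lower than higher there at 45 days against none. The uninduced sum is the smallest, so 20 CPM there is about 12 UMIs. Scaling by the median of ratios, which moved the ratios by 0.12 at 45 days and 0.14 at 15 days against none, gave 105 genes higher and 51 lower at 45 days against none, and 107 higher and 66 lower at 15 days against none.

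MEOX2 and CLDN11, whose levels the choice of cells holds above 0, are given as a description. MEOX2 stood at 301, 367 and 449 CPM without induction, at 15 days and at 45 days, and CLDN11 at 308, 348 and 428 CPM. At 45 days against none the folds were 1.49 for MEOX2, 1.39 for CLDN11, 1.32 for ASPN, 1.47 for PTGFR, 1.50 for ELN and 1.04 for LGR5 (0.795 to 1.38 for the last). Of the 4 markers outside the rule, ASPN and PTGFR were more than 2-fold apart between 45 and 15 days, as given with the 15 day library.

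The genes that were lower in induced double-positive cells included immediate early genes and the proteoglycan LUM. FOS, a transcription factor induced within minutes of stimulation or stress, stood at 1087, 381 and 289 CPM without induction, at 15 days and at 45 days, and was 3.75-fold lower at 45 days than without induction (3.43 to 4.10). EGR1, another such factor, stood at 295, 107 and 98.4 CPM and was 3.00-fold lower at 45 days. JUN stood at 496, 229 and 265 CPM, FOSB at 93.8, 42.2 and 33.7 CPM and NR4A1 at 82.0, 37.7 and 27.6 CPM. In all, 5 of 15 immediate early genes were at least 2-fold lower and 0 higher at 45 days against none, with a median log2 ratio of -0.75, and 6 of 15 were lower at 15 days, with a median of -0.62. In the open set of other mesenchymal cells the medians of these genes were -0.25 and 0.18, a difference that was not tested. Median mitochondrial shares of double-positive cells, a measure that cell stress can move, were 5.01%, 3.69% and 3.55%, and their part in this result was not tested.

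LUM (lumican), a proteoglycan that spaces collagen fibrils, stood at 501, 151 and 146 CPM, and was 3.43-fold lower at 45 days than without induction (3.01 to 3.90). It was the 1 of 5 small leucine-rich proteoglycans lower at 45 days against none, where the median of the list was 0.01. TCF21, a factor of epicardial and visceral fibroblasts, stood at 82.0, 36.7 and 19.8 CPM. APCDD1, a WNT target that inhibits the pathway, stood at 110, 21.4 and 16.9 CPM. CXCL14, a chemokine, stood at 286, 31.2 and 62.9 CPM, and PENK, which encodes the opioid precursor proenkephalin, at 35.2, 2.6 and 4.4 CPM. FOS and EGR1 stayed past 2-fold at 45 days against none in each of 12 other settings, as did TTR, a carrier protein of liver and choroid plexus at 36.8, 19.6 and 0.1 CPM. Of the 12 lowest genes in this comparison, 8 changed direction in at least 1 setting, APCDD1, CXCL14, TCF21 and PENK among them. The settings that did so leave 23 to 43 uninduced cells.

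**Figure D4:**
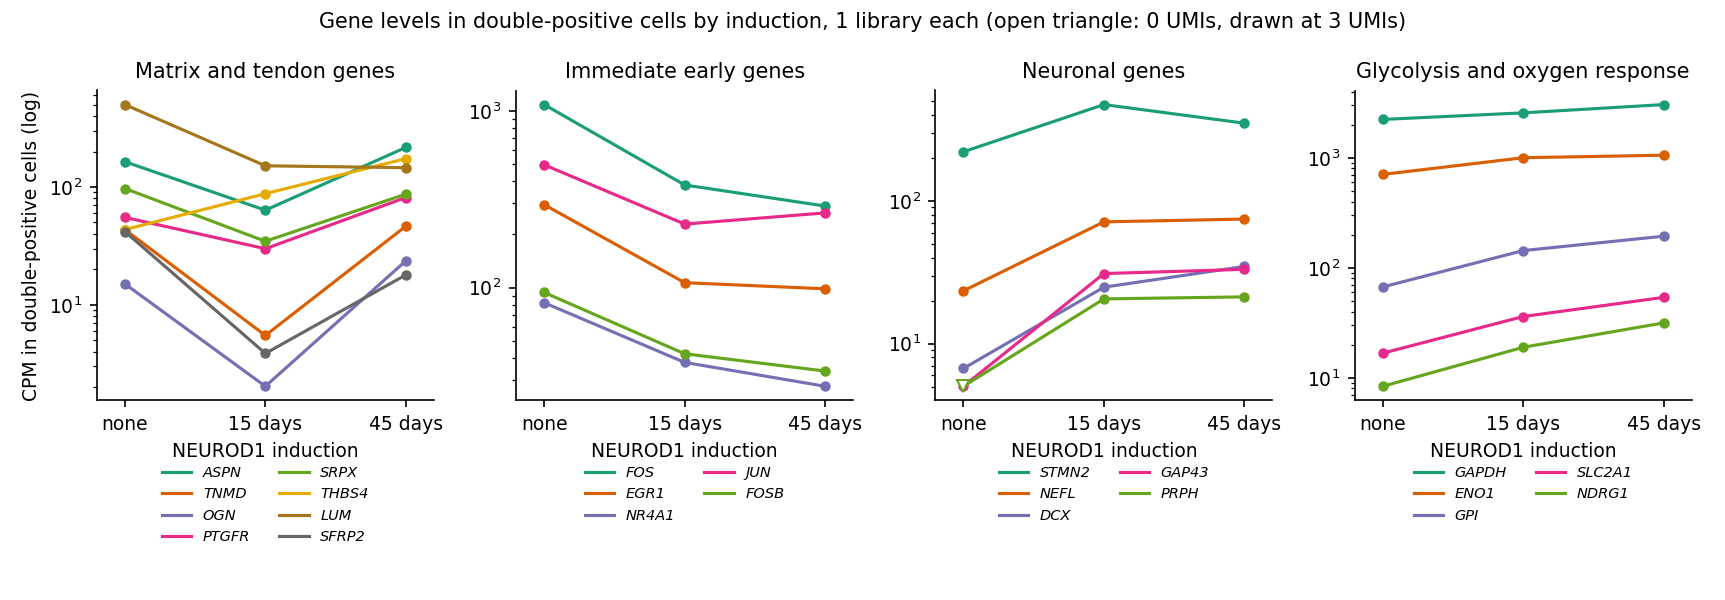
Levels (y axis, CPM, log scale) of matrix and tendon, immediate early, neuronal, and glycolysis and oxygen response genes in double-positive cells of the uninduced, 15 day and 45 day libraries (x axis). Each point is 1 library, and the open triangle stands for the 0 UMIs of PRPH, drawn at 3 UMIs. The 5 immediate early genes and LUM are lower in both induced libraries, THBS4 is highest at 45 days, and ASPN, TNMD, OGN and SFRP2 are lowest at 15 days.

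The genes that were higher at 45 days included some matrix and tendon genes, and hypoxia and neuronal genes. THBS4, a thrombospondin of tendon and muscle attachment, stood at 43.5, 87.8 and 174 CPM without induction, at 15 days and at 45 days, and was 4.001-fold higher at 45 days than without induction (2.72 to 6.15). TNC (tenascin C) stood at 30.1, 36.1 and 81.5 CPM, and was 2.70-fold higher at 45 days, with log2 ratios of 1.30 in double-positive and -0.61 in other mesenchymal cells of the open set. COL12A1, a fibril-associated collagen of tendon and ligament, stood at 23.4, 44.2 and 58.2 CPM. SCX (scleraxis), the transcription factor that marks tendon precursors, stood at 41.9, 60.3 and 60.1 CPM. Of 7 tendon and ligament genes, 3 were higher by 2-fold or more and 2 lower at 45 days against none, with a median of 0.47. The lowest of them was EGR1, given above as an immediate early gene, with a log2 ratio of -1.54. The tendon gene TNMD, described with the 15 day library, was nearly level between 45 days and none.

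STXBP6, a syntaxin-binding protein, stood at 5.0, 18.1 and 40.8 CPM in double-positive cells and was 8.12-fold higher at 45 days than without induction (2.75 to 39.6), from 3 UMIs in the uninduced cells. Other mesenchymal cells of the open set had it at 34.7, 7.1 and 10.5 CPM, so the 2 kinds of cell moved in opposite directions, a difference that was not tested. LHX9, a limb and gonad homeobox factor, stood at 1.7, 10.6 and 25.6 CPM, a ratio of 15.3 (2.71 to 607) at 45 days against none that rests on 1 UMI without induction. FABP4, a lipid carrier of capillary endothelium and fat, stood at 0, 20.2 and 29.3 CPM, and was at least 5.84-fold higher at 45 days, taking 3 UMIs as the floor of the uninduced sum, with 43 of its 222 UMIs at 45 days from 1 cell. KRT17 stood at 1.7, 11.8 and 101 CPM, but 290 of its 768 UMIs at 45 days came from 1 cell.

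Hypoxia and glycolysis genes were higher together by small amounts. Of 24 measured at 45 days against none, 6 were at least 2-fold higher and 0 lower, all 24 had a ratio above 0, and the median was 0.58, beside 0.14 over all genes. In the open set of other mesenchymal cells their median was 0.54. VEGFA, the main growth factor of endothelial cells, stood at 36.8, 70.7 and 113 CPM without induction, at 15 days and at 45 days, and was 3.08-fold higher at 45 days. GPI, a glycolytic enzyme, stood at 67.0, 143 and 194 CPM, and SLC2A1, the glucose transporter GLUT1, at 16.7, 36.1 and 53.9 CPM. For SLC2A1 the log2 ratio was 1.44 in double-positive cells and -0.08 in the open set, and for GPI it was 1.47 and 1.34.

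Growth factor and retinoid genes were also among the higher ones. IGFBP5 and IGFBP2, which bind insulin-like growth factors outside the cell, stood at 126, 227 and 301 CPM and at 288, 491 and 586 CPM, and both passed 2-fold at 45 days against none, as 2 of 11 genes of that list, with a median of 0.40. Of 13 retinoid genes, 2 were higher and 0 lower at 45 days, with a median of 0.40. They were DHRS3, which turns retinal back to retinol, at 20.1, 40.7 and 51.9 CPM, and ALDH1A3, an enzyme that makes retinoic acid, at 16.7, 35.0 and 41.7 CPM. SPRY4, an inhibitor of FGF signalling, stood at 40.2, 107 and 84.8 CPM. It was among the 3 of 10 FGF and ERK genes that were at least 2-fold higher at 15 days against none, where the median was 0.56.

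Neuronal transcripts were higher in both induced libraries. STMN2, a microtubule regulator of neurons, stood at 221, 473 and 350 CPM, NEFL (neurofilament light) at 23.4, 71.3 and 74.6 CPM, and DCX (doublecortin) at 6.7, 24.9 and 34.7 CPM. Of 7 neuronal markers, 4 were at least 2-fold higher at 45 days against none, with a median of 1.48, and 6 of 8 at 15 days, with a median of 1.39. The medians in the open set were 1.36 and 1.94. Summed neuronal markers stood at 454, 1028 and 811 CPM in double-positive cells, against 312, 1309 and 867 CPM in the open set. With simulated doublets removed the medians in double-positive cells were 1.53 and 1.47. The part of free RNA in these levels was not tested.

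The 15 day library had its own pattern, with low ASPN and TNMD and high DKK1. TNMD (tenomodulin), a membrane protein of mature tendon, stood at 43.5, 5.5 and 46.5 CPM without induction, at 15 days and at 45 days: it was 7.91-fold lower at 15 days than without induction (4.44 to 14.1) and 8.45-fold higher at 45 than at 15 days (5.71 to 13.0). ASPN, at 164, 63.6 and 217 CPM, was 2.58-fold lower at 15 days than without induction (2.04 to 3.25) and 3.41-fold higher at 45 than at 15 days (3.02 to 3.86). OGN, at 15.1, 2.0 and 23.6 CPM, was 11.6-fold higher at 45 than at 15 days (6.16 to 24.6). Small leucine-rich proteoglycans had a median log2 ratio of -1.29 at 15 days against none, with 3 of 4 lower, and of 0.70 at 45 against 15 days, with 2 of 5 higher.

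PTGFR was 2.72-fold higher at 45 than at 15 days (2.27 to 3.28), and ELN 1.90-fold. SRPX, at 97.1, 34.6 and 87.0 CPM, was 2.51-fold higher at 45 than at 15 days, and PAPPA, a protease that frees insulin-like growth factors from their binding proteins, stood at 28.5, 8.1 and 31.7 CPM. For ASPN, TNMD and OGN the log2 ratios of 45 against 15 days in the open set were 0.95, 0.85 and 0.68, of the same sign as those in double-positive cells, which were 1.69, 2.29 and 2.02. TNMD and ASPN passed 2-fold in each of the 12 other settings.

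DKK1 stood at 40.2, 192 and 43.4 CPM, and was 4.78-fold higher at 15 days than without induction (3.19 to 7.49) and 4.42-fold lower at 45 than at 15 days (3.89 to 5.02). In the open set its log2 ratio at 45 against 15 days was -1.58. IGFBP3, an abundant binding protein of insulin-like growth factors, stood at 166, 251 and 84.9 CPM, and was 2.95-fold lower at 45 than at 15 days (2.68 to 3.25). CDKN2A, which encodes cell cycle inhibitors, stood at 13.4, 58.5 and 14.9 CPM, and SCN9A, a sodium channel of sensory neurons, at 11.7, 28.5 and 6.3 CPM. SFRP2, at 41.9, 3.87 and 18.0 CPM, was 10.8-fold lower at 15 days than without induction (5.72 to 20.8).

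The liver secretory transcripts named here were low at 45 days. Among them ALB was found mainly at 15 days, while TTR, given above, was highest without induction. ALB (albumin) stood at 0, 21.8 and 0.13 CPM in double-positive cells, with 107 UMIs spread over 92 cells at 15 days and 1 UMI at 45 days, and at 0.4, 23.4 and 0.1 CPM in the open set. AFP (alpha-fetoprotein) stood at 16.7, 33.4 and 0 CPM, and was at least 84.3-fold lower at 45 than at 15 days. APOA1, a lipoprotein of liver and gut, stood at 16.7, 26.9 and 2.1 CPM. ALB was thus at nearly one level in both kinds of cell at 15 days, and the part of free RNA in these genes was not tested.

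Most structural lists moved little between groups. At 45 days against none, 0 of 17 elastic fibre genes passed 2-fold, with a median of -0.04, and 0 of 15 basement membrane genes, with a median of -0.08. Among 13 fibrillar and associated collagens 1 was higher and 1 lower, with a median of -0.14, and at 15 days against none 1 was lower, with a median of -0.40. Limb mesenchyme factors had 1 of 15 higher at 45 days, LHX9, with a median of 0.19, and HOX genes 1 of 11, with a median of 0.36. Among 12 mesenchymal markers 1 was lower at 45 days, LUM, with a median of -0.36, and 3 were lower at 15 days, with a median of -0.51. The medians of these markers in the open set were -1.22 and -1.42.

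**Figure D5:**
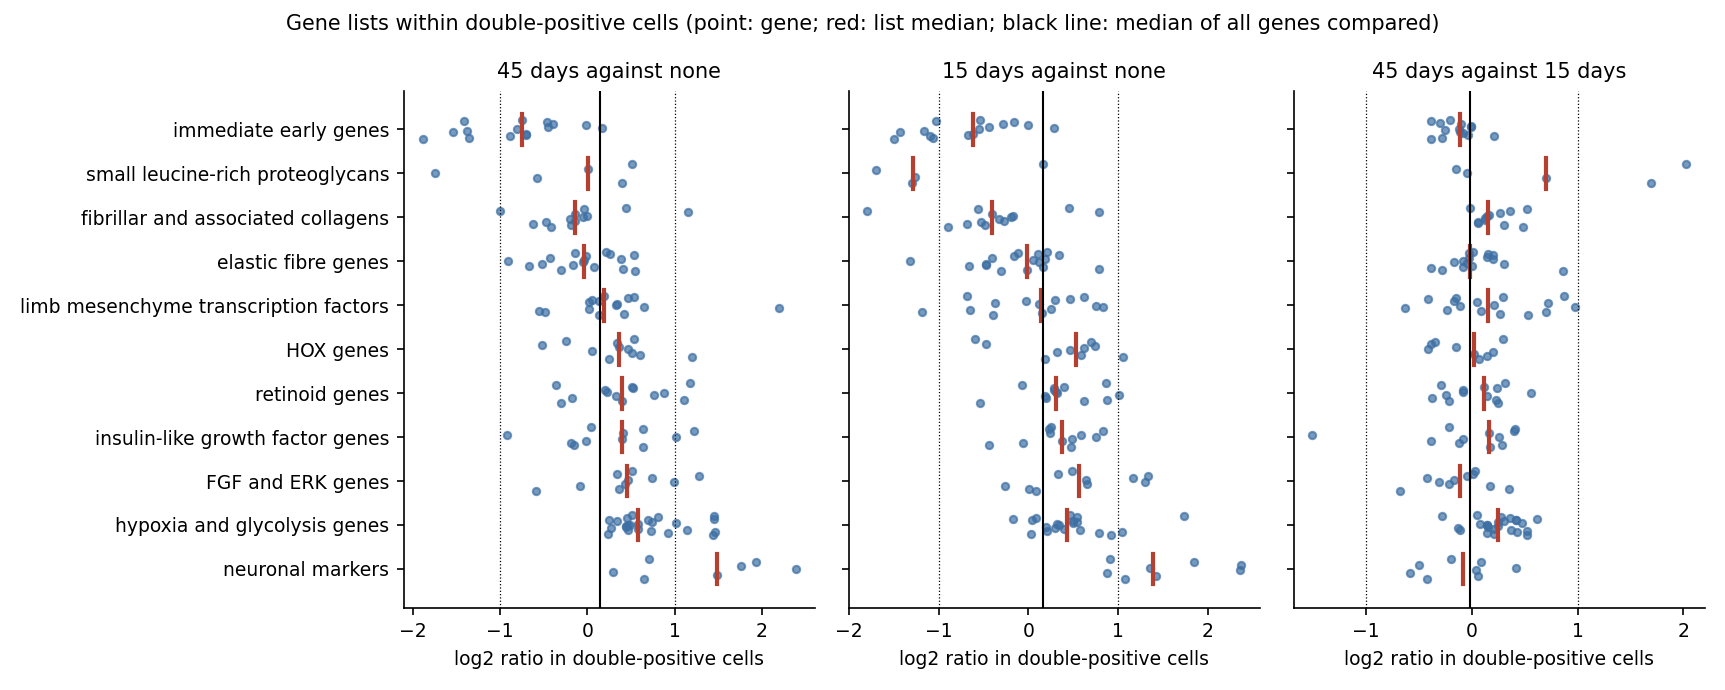
Log2 ratios (x axis) of the genes of 11 lists (rows) within double-positive cells for 45 days against none, 15 days against none and 45 against 15 days. Each point is 1 gene, red marks are list medians, the black line is the median of all genes compared and dotted lines stand at 2-fold. Neuronal markers lie highest against no induction, immediate early genes are at -0.75 and -0.62, and small leucine-rich proteoglycans change sign between 15 days against none (-1.29) and 45 against 15 days (0.70).

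Depth limits the uninduced values most, since 1 UMI is 1.67 CPM of their sum, 0.204 CPM of the sum at 15 days and 0.132 CPM of that at 45 days. Intervals leave out the differences between cells, organoids and captures, and the 3 libraries shared 13 to 33 barcode sequences per pair, of which 0 belonged to double-positive cells in both.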

How the data were processed

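The deposited files hold raw UMI counts per gene and barcode. Per the submitters' processing notes the authors made these counts with Cell Ranger 3.0.0 on GRCh38, and the matrix headers name version 3.0.1. Which gene annotation they counted on is not stated in the labels. Of 33538 gene identifiers, 33456 were found in GENCODE 29, which gave the positions. The library was a Chromium 3′ v3 kit per the labels. Totals were 59879923, 49488425 and 64171327 UMIs over 10232, 5962 and 10765 barcodes without induction, at 15 days and at 45 days. Double-positive cells were found by the rule given above, with doublets left in, and their UMIs were summed per library and scaled to CPM. In the sums of double-positive cells 3 UMIs are 5.02, 0.611 and 0.396 CPM. Shares carry exact Clopper-Pearson, levels exact Poisson and folds exact conditional binomial 95% intervals, which cover counting error only. Beside 0 cells, the limit is 3 cells of the total. Folds are plain ratios of CPM. The genes named were taken from the 6 markers, genes of 43 lists, the 12 highest and 12 lowest genes of each pair of libraries, and the 15 highest and 10 lowest genes against other mesenchymal cells; genes of the open set, the ASPN split, the liver genes and NEUROD1 were named with their values seen. Which genes of this rule are described was also decided with their values seen, and not all of them are. One gene is not reported here. The cell rule, markers and lists were chosen with earlier results of these data known. Promoters came from RefSeq tables, which were searched for both starts; ELN and LGR5 had no entry. The script was tested on simulated data. Python 3.11.15, numpy 2.4.6, scipy 1.17.1, pandas 2.3.3, scikit-learn 1.9.0 and matplotlib 3.10.9 were used.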

Additional observations from a re-analysis of the deposited data

Results flagged for a closer look

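STXBP6 differed in direction between 2 kinds of cell in the same pair of libraries. At 45 days against none its log2 ratio was 2.19 in double-positive cells and -1.36 in the open set of other mesenchymal cells, and the difference was not tested. KRT19, a keratin of simple epithelia, had a log2 ratio of 1.59 in double-positive cells and -1.07 in the open set, and this difference was not tested either. It stood at 13.4, 20.8 and 50.4 CPM without induction, at 15 days and at 45 days in double-positive cells, and at 299, 158 and 139 CPM in the open set. Of its 382 UMIs in double-positive cells at 45 days, 92 came from 1 cell.

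Cycling cells, which the rule leaves out, also carried MEOX2 and CLDN11 together. They did so in 1.06% of cycling cells in the uninduced library (11 of 1035), in 13.0% at 15 days (68 of 524) and in 10.2% at 45 days (95 of 927). Thinned to 2000 UMIs, the counts were 2 of 1017, 13 of 512 and 25 of 906.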

How the results depend on the processing

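No paired analysis was possible because each group is 1 library, so no replicate could be left out either. The share of double-positive cells without induction was 0.294% thinned to 2000 UMIs, 0.260% with at least 2 UMIs of both genes and 1.41% of mesenchymal cells. At 15 days it was 3.53%, 4.71% and 17.1% under the same settings, 12.4% with cycling cells kept and 9.90% with no cell filter. At 45 days it was 4.62%, 5.23%, 16.1%, 12.7% and 10.7%, and 11.04% with doublets removed. The fold of 45 days over none was 15.7 thinned and 20.1 with 2 UMIs, and that of 15 days over none 18.2 with 2 UMIs. The fold of 45 over 15 days was 1.31 thinned and 0.945 of mesenchymal cells (0.855 to 1.05).

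The number of genes past 2-fold differed between settings. It was higher where fewer UMIs were summed, but also with 1 CPM added, with a floor of 5 CPM and against all other non-cycling cells. For 45 days against none, where it was 190, it was 321 with 1 CPM added, 42 with 20 CPM, 54 with a floor of 50 CPM, 504 with a floor of 5 CPM, 610 without cells holding other types' markers, 1128 with 2 UMIs of both genes, 2991 thinned and 462 at equal totals. For 15 days against none, where it was 219, these were 361, 44, 59, 561, 852, 1195, 3064 and 460. For 45 against 15 days, where it was 39, it was 10 with 20 CPM added, 14 and 66 with floors of 50 and 5 CPM, 73 without cells holding other types' markers, 333 thinned and 303 at equal totals. Against other mesenchymal cells, where it was 29, it was 9 with 20 CPM added, 11 and 46 with floors of 50 and 5 CPM, 87 against all other non-cycling cells, 59 against cells without MEOX2 and CLDN11, 47 thinned and 49 without cells holding other types' markers.

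Some log2 ratios changed sign, all in settings that leave fewer cells. The uninduced cells left were 43 without cells holding other types' markers, 23 with 2 UMIs and 25 thinned. For 45 days against none, without other types' markers, NPR3 was 0.022 and the mesenchymal median 0.091. With 2 UMIs, APCDD1 was 0.12, CXCL14 0.26, TCF21 1.73, TDO2 0.41, GUCY1A1 0.10, the mesenchymal median 0.055 and the WNT target median 0.35. Thinned, PENK was 0.31, TDO2 and NPR3 0.77, GLIPR1 0.0082, the mesenchymal median 0.16 and the WNT target median 0.10. For 15 days against none, TENT5A was -0.056 without other types' markers. With 2 UMIs, APCDD1 was 0.066, COL14A1 0.34, TAGLN 0.15, TDO2 1.12, the fibrillar collagen median 0.0081 and the WNT target median 0.066. Thinned, TAGLN was 0.65 and the medians of mesenchymal, fibrillar collagen and class I genes 0.031, 0.19 and -0.013. For 45 against 15 days, where no uninduced cells enter, TAC1 was 0.0076 without other types' markers, from 117 cells at 15 days and 440 at 45 days. Thinned, PLVAP was 0.32 there, from 177 and 422 cells. The cause of these changes was not tested.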
